A study of Mus musculus with 4 samples.

Results

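The genes described here are 10 genes of MHC class II antigen presentation, chosen by name from the 31053 genes in the deposited count matrices: H2-Aa, H2-Ab1, H2-Eb1, H2-DMa, H2-DMb1, H2-DMb2, H2-Oa, H2-Ob, Cd74 and Ciita. All 10 were found in each library. MHC class II molecules carry peptides from ingested or internalised protein to the cell surface, where CD4+ T cells read them. B cells, dendritic cells (DCs) and macrophages are the cells best known for this task. An α chain and a β chain, encoded here by H2-Aa and H2-Ab1 for the I-A molecule and by H2-Eb1 for the β chain of I-E, form the peptide groove. The invariant chain, encoded by Cd74, blocks that groove until the molecule reaches the endosome, where H2-DM (H2-DMa paired with H2-DMb1 or H2-DMb2) removes the last invariant chain fragment and edits the peptides. H2-DO (H2-Oa with H2-Ob) binds H2-DM and holds it back. CIITA, encoded by Ciita, is a coactivator of class II transcription, and it acts through the RFX and NF-Y factors that sit on the class II promoters.

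The cells were live ChAT-eGFP+ cells, sorted by FACS from the stromal vascular fraction of inguinal white adipose tissue (IWAT) of male ChATBAC-eGFP mice, in which a bacterial artificial chromosome drives green fluorescent protein from the choline acetyltransferase gene. The transgene thus reports the activity of its own promoter, and cells of IWAT without it are not represented. All mice were 5 weeks old at the start and spent 3 weeks at thermoneutrality, 30 °C. They then either stayed at 30 °C for a further 4 h or were moved to 4 °C for 4 h. The cold group had also spent time at room temperature in between. Each temperature has 2 libraries made with 10x 3′ chemistry, and each library pools 4 mice. The p-values of temperature tests fitted class by class measure the spread between pools. Comparisons of classes, and of the temperature change between classes, took library as a block. The p-values of those comparisons measure the scatter of classes that is left within libraries, and not the spread between pools. The time at room temperature and the 4 h at 4 °C cannot be told apart in the cold group. The comparisons ask in which ChAT-eGFP+ cells the class II genes were expressed and whether they differed between the 30 °C and 4 °C groups.

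Of the 10 genes, 8 lie together on mouse chromosome 17, in 224 kb between H2-Oa and H2-Eb1 (chr17:34092340-34316674, mm10, GENCODE M21). Ciita lies on chromosome 16 (chr16:10480059-10528418, plus strand), and Cd74 on another chromosome. RefSeq promoter windows (GRCm38.p6, 250 bases before to 50 bases after a start) were given for 7 of the 10 genes, and in 6 of these 7 the letters AAC were followed after 24 to 28 bases by GATTGG. These letters are shown because they lie where the class II promoter module is known to sit, with RFX on the X box and NF-Y on the Y box, whose reverse reads CCAAT. AAC and GATTGG are in capitals.

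H2-Aa: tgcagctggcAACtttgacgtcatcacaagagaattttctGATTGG
H2-Eb1: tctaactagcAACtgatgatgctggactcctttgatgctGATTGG
H2-DMb2: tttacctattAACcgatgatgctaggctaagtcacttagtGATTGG
H2-Oa: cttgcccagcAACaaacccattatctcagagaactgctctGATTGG
H2-Ob: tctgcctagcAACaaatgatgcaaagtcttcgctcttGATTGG

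The printed stretches are chr17:34287867-34287912 on the minus strand for H2-Aa, and on the plus strand chr17:34305768-34305812 for H2-Eb1, chr17:34145118-34145163 for H2-DMb2, chr17:34092295-34092340 for H2-Oa and chr17:34238810-34238852 for H2-Ob. GATTGG began 49, 60, 91, 44 and 58 bases before the RefSeq start of H2-Aa, H2-Eb1, H2-DMb2, H2-Oa and H2-Ob, respectively. H2-DMb1 held the same arrangement 62 bases before its start, and neither window of H2-DMa held it. Across all 32851 windows of this length, 1.11% held AAC and GATTGG at that distance on either strand and 16.1% held GATTGG alone, and the distance was set after the sequences had been seen. A match of letters is a description and not evidence of binding. In the 250 bases before their starts, H2-DMb1 and H2-DMb2 were identical at 83.7% of 209 aligned positions.

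The 4 matrices held between 6272 and 6883 cells and between 76058112 and 84468931 unique molecular identifiers (UMIs). After the filters of the study's methods, 21249 cells remained, with a median of 7517.5 to 8064.5 UMIs per library. Of 26654 barcodes, 81 occurred in more than 1 library. Cells were assigned to classes by marker genes that included none of the 10, and a cell in the gates of more than 1 lineage (1924 cells) entered no class. This gave 6879 naive B cells, 900 germinal centre (GC) B cells, 508 plasma cells, 301 DCs, 834 macrophages and 979 innate lymphoid cells (ILCs). The 7460 T cells and 115 stromal cells served as background. Shares of cells with a gate gene follow in part from the gates: Rgs13 was found in 91.7% of GC B cells, Jchain in 98.0% of plasma cells, C1qa in 97.5% of macrophages, and in ILCs Gata3 in 86.5%, Il17rb in 48.0% and Il1rl1 in 14.2%. Genes of the T and B cell gates were found at low shares in other classes, Cd3e in 0.613% and Trac in 7.97% of ILCs and Cd79a in 7.55% of macrophages, which also follows in part from leaving out cells in more than 1 gate. In DCs Fscn1, a gene of mature DCs, was found in 96.0% of cells, Flt3 in 69.4%, and Xcr1 and Cd209a, which mark conventional DC subsets, in 3.65% and 0.997%. Cold replicate 1 held 403 of the 834 macrophages and the other 3 libraries 139, 151 and 141.

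Levels are given as CPM, the UMIs of a gene divided by all UMIs of a class in a library and scaled as usual, and since 3′ counting gives each gene its own capture, they are compared between classes and not between genes. Values in the 4 libraries are listed as 30 °C replicates 1 and 2, then 4 °C replicates 1 and 2. Together the 10 genes took up 4.63% of all UMIs in macrophages (range over libraries 4.42 to 4.80%), 2.30% in naive B cells (2.28 to 2.32%), 1.97% in GC B cells (1.80 to 2.13%) and 1.82% in DCs (1.68 to 1.91%). Plasma cells held 0.611%, ILCs 0.255%, T cells 0.0699% and stromal cells 0.0173%. Macrophages, GC B cells, plasma cells and ILCs did not overlap with each other or with naive B cells, whereas DCs overlapped with GC B cells.

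**Figure D1:**
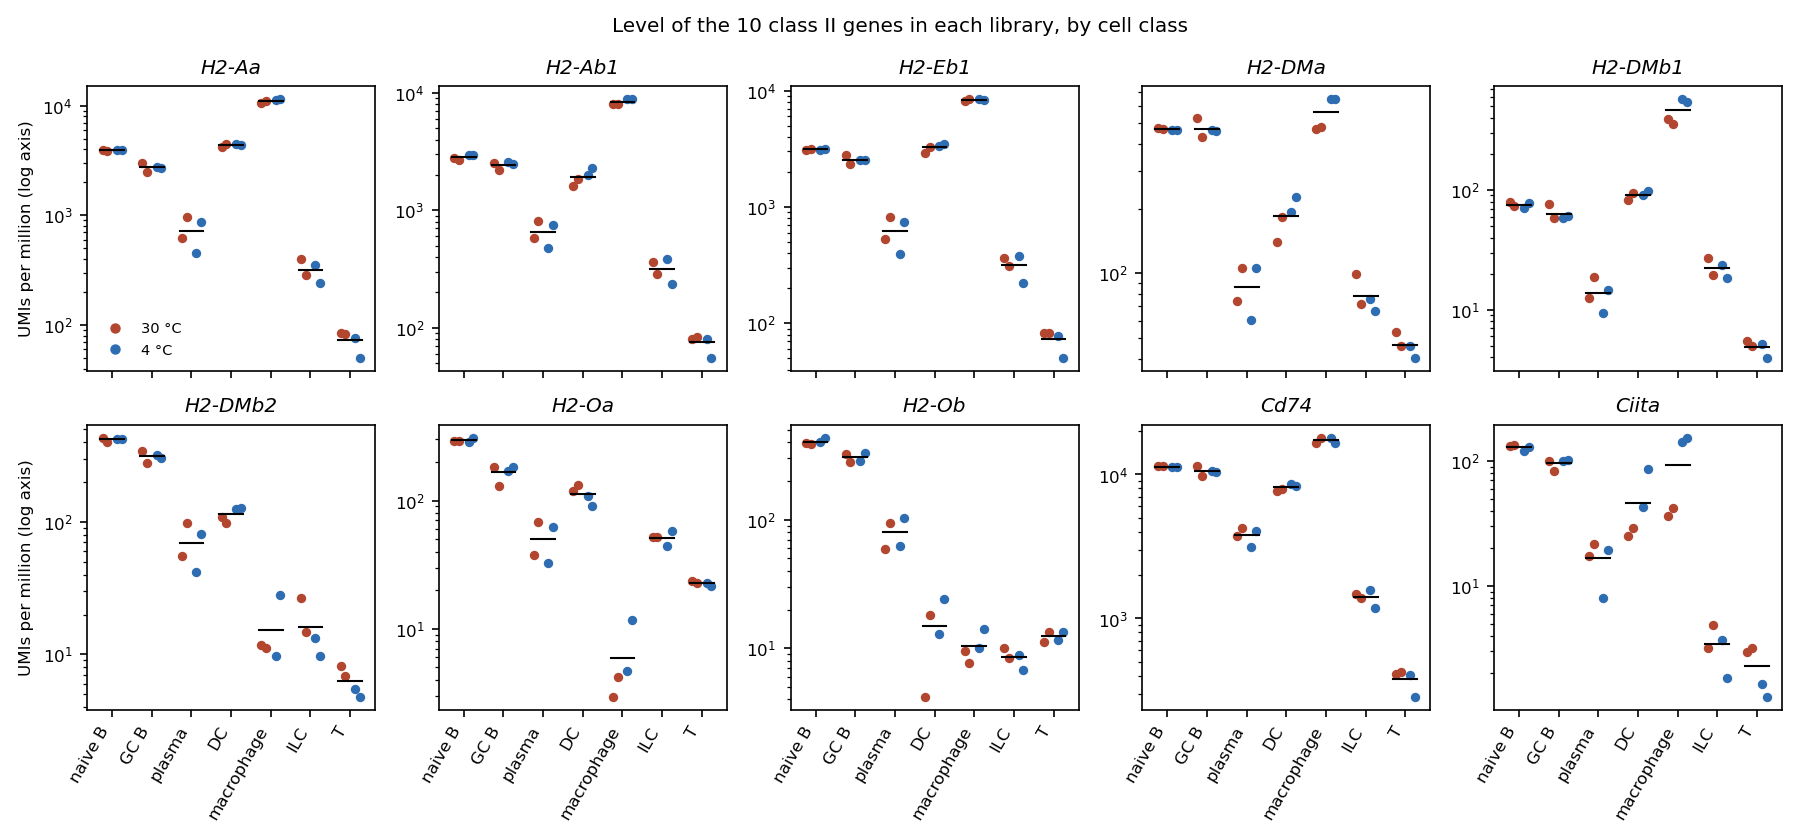
Level of each of the 10 class II genes (CPM on a log axis) in 7 cell classes, 1 point per library (30 °C red, 4 °C blue), with the mean of the 4 libraries as a bar. H2-Aa, H2-Ab1, H2-Eb1 and Cd74 are highest in macrophages, H2-DMb2, H2-Oa and H2-Ob are highest in naive B cells, and Ciita in macrophages splits by temperature.

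The peptide-binding chains were highest in macrophages. H2-Aa stood at 10580, 11027, 11360 and 11505 CPM in macrophages, at 4162, 4434, 4503 and 4345 CPM in DCs and at 3979, 3898, 3933 and 3949 CPM in naive B cells. The 3 sets of values did not overlap, but the 289 DCs with a UMI of Fscn1 (3757 to 4392 CPM, described further on) overlapped with naive B cells. GC B cells (2483 to 3006 CPM), plasma cells (457 to 962 CPM) and ILCs (244 to 396 CPM) followed without overlap. H2-Ab1 had another order below macrophages (7967, 8104, 8876 and 8798 CPM), with naive B cells (2667 to 2955 CPM) above DCs (1602 to 2267 CPM), and DCs overlapped with GC B cells (2190 to 2553 CPM). H2-Eb1 was at 8185 to 8468 CPM in macrophages, and DCs (2920 to 3451 CPM) and naive B cells (3106 to 3157 CPM) overlapped. The ratio of H2-Aa to H2-Ab1 UMIs was therefore 2.30 ± 0.289 (SD, n = 4) in DCs, against 1.39 ± 0.0667 in naive B cells, 1.12 ± 0.0487 in GC B cells and 1.32 ± 0.0340 in macrophages. H2-Eb2, a relative of H2-Eb1 that is not one of the 10, was at 75.3 CPM in DCs, 62.6 in GC B cells and 58.5 in naive B cells but at 1.91 CPM in macrophages.

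Cd74, the invariant chain gene, was highest in macrophages. It was at 16526, 17941, 17884 and 16581 CPM in macrophages and at 11503, 11363, 11204 and 11301 CPM in naive B cells, which overlapped with GC B cells (9697 to 11418 CPM). DCs held 7633 to 8594 CPM, plasma cells 3131 to 4236 CPM, ILCs 1179 to 1588 CPM and T cells 286 to 423 CPM. Relative to H2-Ab1, Cd74 was lowest in macrophages, at a ratio of 2.05 ± 0.137 (SD, n = 4), against 4.01 ± 0.233 in naive B cells and 5.89 ± 0.677 in plasma cells.

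The 3 H2-DM genes parted macrophages from B cells by their β chain. H2-DMb1 was at 389, 354, 576 and 548 CPM in macrophages, against 82.9 to 97.2 CPM in DCs, 70.8 to 78.7 CPM in naive B cells and 9.42 to 18.7 CPM in plasma cells. The 289 DCs with Fscn1 alone were at 43.4 to 69.3 CPM of H2-DMb1, below every naive B cell library, and the other 12 DCs at 482 to 923 CPM. H2-DMb2 was at 430, 400, 422 and 423 CPM in naive B cells but at 11.8, 11.2, 9.67 and 28.3 CPM in macrophages. No library of one class came near the other. As a share of H2-DMb1 and H2-DMb2 UMIs together, H2-DMb2 made up 84.5%, 84.5%, 85.6% and 84.4% in naive B cells and 2.95%, 3.06%, 1.65% and 4.91% in macrophages, from 523 to 8617 UMIs per library. GC B cells were at 83.2% and plasma cells at 82.9% on average, DCs at 56.6%, 50.9%, 57.8% and 56.5%, and ILCs at 34.8 to 49.5%. Confidence intervals in the plot of these shares are exact 95% binomial (Clopper-Pearson) intervals and cover counting error only. Both genes are close copies, and 20.4% of the 50-base stretches in the last 500 bases of H2-DMb1 transcripts also occur in H2-DMb2 transcripts, against 0 of those of H2-DMb2, so that the split between them is uncertain to the extent that reads fell there. H2-DMa, the shared α chain, differed less, with 562 CPM in macrophages (469 to 650), 472 in GC B cells and 468 in naive B cells, all overlapping, and 185 CPM in DCs (140 to 227).

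The H2-DO genes were highest in naive B cells, and H2-Ob and H2-Oa differed in their order over the other classes. H2-Ob was at 397, 392, 401 and 434 CPM in naive B cells and at 280 to 331 CPM in GC B cells, and plasma cells came next, at 58.8 to 104 CPM. DCs (4.2 to 24.3 CPM), T cells (11.1 to 13.5), macrophages (7.68 to 14.1) and ILCs (6.73 to 10.1) could not be ordered for H2-Ob, as their ranges overlapped. H2-Oa was at 292, 292, 288 and 308 CPM in naive B cells and at 129 to 182 CPM in GC B cells, but DCs held 118, 132, 109 and 90.7 CPM and ILCs 52.3, 51.6, 44.4 and 57.5 CPM. Plasma cells, at 32.8 to 67.5 CPM of H2-Oa, lay below every DC library and overlapped with ILCs. H2-Oa in ILCs lay above every T cell library (21.7 to 23.4 CPM) and every macrophage library (2.96 to 11.8 CPM, from 4 to 16 UMIs). The ratio of H2-Ob to H2-Oa UMIs was 1.38 ± 0.0296 (SD, n = 4) in naive B cells and 1.87 ± 0.213 in GC B cells, but 0.140 ± 0.0961 in DCs and 0.168 ± 0.0375 in ILCs.

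The ratio of H2-DM to H2-DO UMIs was 1.37 ± 0.0536 (SD, n = 4) in naive B cells, 1.80 ± 0.133 in GC B cells, 1.31 ± 0.138 in plasma cells and 3.12 ± 0.644 in DCs. In macrophages it was 68.0 ± 15.4, on 17 to 50 H2-DO UMIs per library. GC B cells exceeded the naive B cells of the same library by 0.39 ± 0.063 on the log2 scale (SD, n = 4), in 4 of 4 libraries, and an exact sign-flip test of 4 libraries cannot reach a p of 0.05.

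**Figure D2:**
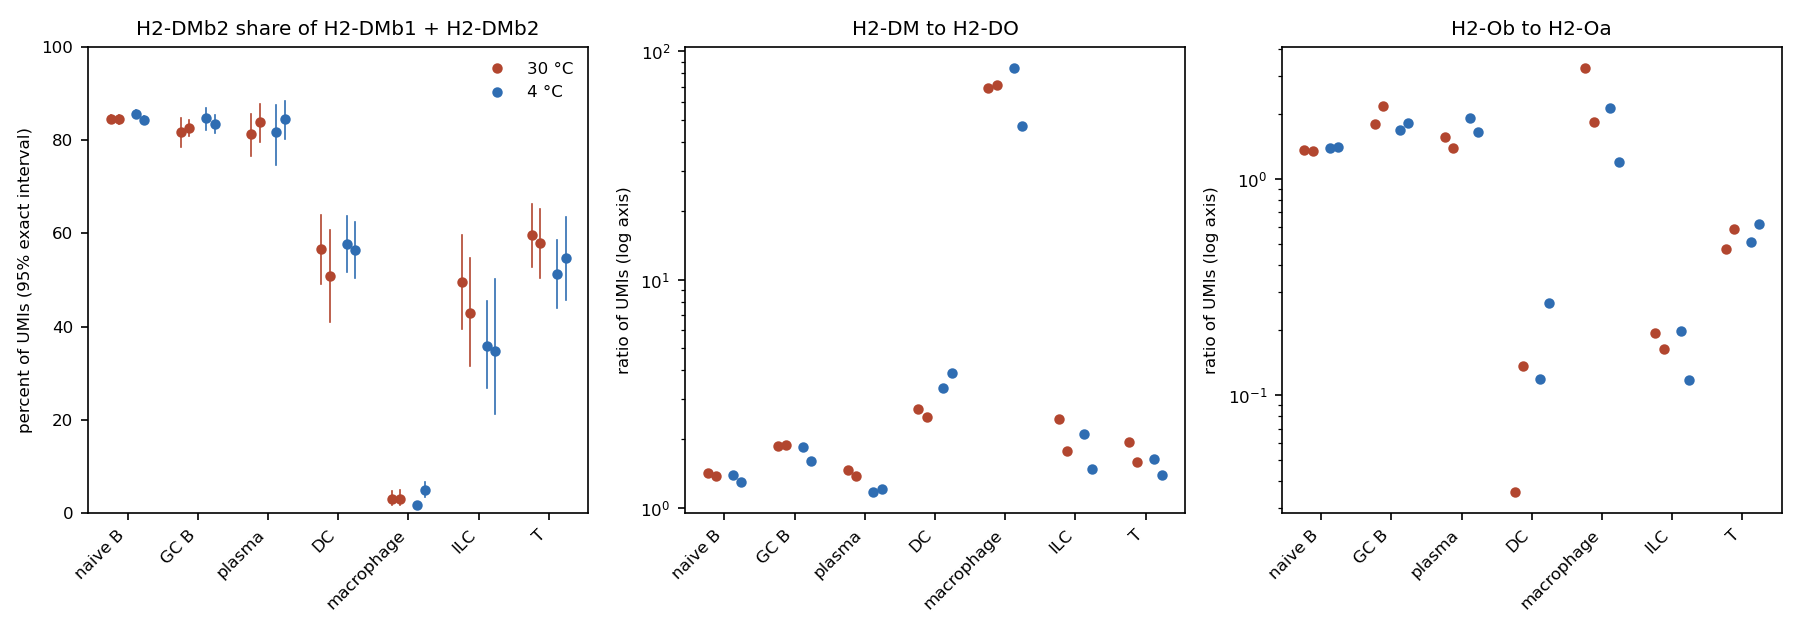
Balance of class II accessory genes by cell class, 1 point per library (30 °C red, 4 °C blue): left, H2-DMb2 as a percent of H2-DMb1 and H2-DMb2 UMIs with exact 95% intervals; middle, ratio of H2-DM to H2-DO UMIs; right, ratio of H2-Ob to H2-Oa UMIs (both on log axes). The H2-DMb2 share lies at 81.4 to 85.6% in the B lineage classes and at 1.65 to 4.91% in macrophages, and H2-Ob to H2-Oa is below 0.27 in DCs and ILCs.

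Ciita was at 133, 133, 120 and 128 CPM in naive B cells and at 83.2 to 102 CPM in GC B cells. In macrophages it was at 36.2, 41.9, 143 and 153 CPM and in DCs at 25.2, 29.0, 42.6 and 86.7 CPM, with the 2 cold libraries above the 2 warm ones in both classes. Plasma cells held 8.03 to 21.6 CPM, and ILCs (1.84 to 4.90 CPM, from 3 to 11 UMIs) and T cells (1.30 to 3.21 CPM) overlapped.

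Classes were compared within libraries by edgeR's quasi-likelihood test on summed counts, with library as a block, and log2 fold changes are given with their SE. Of all 11659 genes tested, 52.0% passed between GC B cells and naive B cells (26.2% higher and 25.8% lower in GC B cells), so that the counts below stand against high backgrounds. In GC B cells 8 of the 10 genes were lower than in naive B cells (median log2 fold change -0.50, all genes -0.07). H2-Oa fell most (-0.99 ± 0.14, adjusted p = 1.29e-06), followed by H2-Aa (-0.67 ± 0.15, adjusted p = 0.000436), H2-DMb2 (-0.57) and H2-Ob (-0.56). H2-DMa (-0.14, adjusted p = 0.441) and Ciita (-0.59 ± 0.29, adjusted p = 0.0881) did not pass. Ciita did pass as lower in 4 alternatives, from -0.72 to -0.78 (adjusted p from 0.00824 to 0.0356), namely with cells above 5000 genes kept, stricter gates, no filter on low counts, or immunoglobulin genes left out. TMM normalization, which centres the bulk of genes, matters here: with library totals as the scaling the median of all genes was 0.08, 63.2% instead of 50.4% of called genes were higher in GC B cells, and 3 of the genes, H2-Aa, H2-Oa and H2-Ob, remained lower. Of 19 partner genes (processing enzymes, regulators of class II transcription and costimulatory genes), 5 were higher and 7 lower, among them Ctss, the cathepsin that trims the invariant chain in B cells (-1.03, adjusted p = 7.81e-10), and the costimulatory gene Cd86 (0.68, adjusted p = 9.00e-05).

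In plasma cells all 10 genes were lower than in naive B cells, where 40.0% of genes passed, 20.9% higher and 19.1% lower. The fall ran from -0.63 ± 0.094 for Cd74 to -2.0 ± 0.34 for Ciita, the latter a 3.99-fold difference (adjusted p = 3.06e-05). H2-Aa (-1.50), H2-DMa (-1.49) and H2-Ob (-1.42) were near the median of the 10, -1.49, against -0.02 over all genes. Immunoglobulin transcripts took 45 to 53.3% of plasma cell UMIs, and with library totals the median of all genes was -0.97 and 9.18% instead of 52.3% of called genes were higher. The 10 genes were lower under that scaling too. Ciita in plasma cells was at 34.9, 39.2, 17.2 and 36.4 CPM when immunoglobulin genes were left out. Of the partner genes 10 were lower, including Cd40 (-1.74) and Cd86 (-1.15), and 5 were higher, including the lysosomal proteases Ctsl (2.31) and Ctsb (1.68).

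DCs had less of 7 genes than naive B cells (61.8% of genes passed, 32.9% higher and 29.0% lower) and more of none. H2-Aa (-0.05), H2-Eb1 (-0.13) and H2-DMb1 (0.08) did not pass, H2-Ab1 (-0.75 ± 0.14) and Cd74 (-0.67 ± 0.094) were lower, and H2-DMa (-1.52), H2-Oa (-1.61), Ciita (-1.65) and H2-DMb2 (-2.04) were lower still. H2-Ob was 31.2-fold lower (-4.96 ± 0.19, adjusted p = 2.27e-17). With library totals 63.7% instead of 53.1% of called genes were higher in DCs, the median of all genes was 0.19, and the number of lower class II genes was again 7. Of the partner genes 13 were higher, led by Ctsl (4.57), Cd80 (2.45) and Irf1 (2.23), and 3 were lower. March1, which encodes the ubiquitin ligase that takes class II molecules off the surface, was the lowest of them (-4.24, adjusted p = 4.38e-14).

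The 301 DCs were not uniform, and a split by Fscn1 was made after these values had been seen. In the 289 cells with an Fscn1 UMI, H2-Ab1 was at 1192, 998, 1769 and 1530 CPM, and in the 12 cells without, 2 to 5 per library, it was at 10773, 9563, 10214 and 10102 CPM. H2-Aa was at 3757 to 4392 CPM with Fscn1 and at 8434 to 11092 CPM without. H2-DMb1 (43.4 to 69.3 against 482 to 923 CPM) and Ciita (19.7 to 73.6 against 92.7 to 226 CPM) were also apart. H2-DMb2 took 64.3 to 74.5% of the H2-DMb UMIs of cells with Fscn1 and 0 to 15.5% of those without. All 4 values of H2-Ab1 in cells without Fscn1 lay above the macrophage libraries (7967 to 8876 CPM). These 12 cells held 2348 H2-Ab1 UMIs and 161 H2-DMb1 UMIs, against 5455 and 203 in the other 289, so that the values of DCs as a class mix both kinds of cell.

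In macrophages 4 of the 10 genes were higher and 4 lower than in naive B cells, where 71.1% of genes passed, 37.6% higher and 33.5% lower. H2-DMb1 (2.20 ± 0.14, 4.59-fold), H2-Ab1 (1.14 ± 0.14), H2-Aa (1.06 ± 0.15) and H2-Eb1 (0.98 ± 0.15) were higher, with an adjusted p of at most 2.55e-06. H2-Oa (-6.14 ± 0.22), H2-Ob (-5.73 ± 0.19) and H2-DMb2 (-5.31 ± 0.25) were lower, at 70.4-, 52.9- and 39.7-fold. No macrophage library reached the level of any naive B cell library for these 3 genes. Ciita was lower with both temperatures pooled under TMM (-0.90 ± 0.30, adjusted p = 0.00950). By CPM, which scales by library totals, it was lower at 30 °C (36.2 and 41.9 against 133 and 133 in naive B cells) but higher at 4 °C (143 and 153 against 120 and 128), with neither temperature tested alone. It did not pass with library totals (-0.47, adjusted p = 0.154), nor without either 30 °C library (-0.60 without replicate 1, adjusted p = 0.0865, and -0.57 without replicate 2, adjusted p = 0.144). H2-DMa (-0.17) and Cd74 (0.17, adjusted p = 0.112) did not pass, and with library totals, where the median of all genes was 0.46 and 71.0% instead of 52.9% of called genes were higher, Cd74 was higher (0.60, adjusted p = 3.88e-06). Among partner genes 10 were higher and 5 lower, and the proteases Ctsl (5.73), Ctsb (5.68) and Lgmn (3.5) differed most.

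DCs set directly against macrophages had 3 genes higher and 6 lower (54.7% of genes passed, 26.7% higher and 28% lower). H2-Oa (4.53 ± 0.25, 23.1-fold) and H2-DMb2 (3.27 ± 0.27, 9.65-fold) were higher in DCs. H2-Ob was also higher (0.76 ± 0.29, adjusted p = 0.0302), but not in 6 of the alternatives, among them the fits without 30 °C replicate 2 (0.59, adjusted p = 0.168), without either cold library (0.80, adjusted p = 0.113, and 0.45, adjusted p = 0.315) and with library totals (0.52, adjusted p = 0.147). H2-DMb1 (-2.12), H2-Ab1 (-1.89), H2-DMa (-1.36), H2-Eb1 (-1.12), H2-Aa (-1.11) and Cd74 (-0.84) were lower. Ciita (-0.75 ± 0.38, adjusted p = 0.0976) did not pass under TMM but did with library totals (-0.99, adjusted p = 0.0246), under which the median of all genes was -0.28 and 36.2% instead of 48.9% of called genes were higher in DCs.

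ILCs, which are lymphoid cells without an antigen receptor, were compared with T cells, which were taken as the background level. In ILCs 8 of the 10 genes were higher (22.4% of genes passed, 10.7% higher and 11.8% lower), and 8 were higher with library totals too, which left 33.4% instead of 47.6% of called genes higher and a median of -0.11. H2-DMb1 (2.26 ± 0.20), H2-Eb1 (2.21 ± 0.16), H2-Aa (2.21 ± 0.16), H2-Ab1 (2.17 ± 0.15) and Cd74 (1.97 ± 0.097) were 3.92- to 4.80-fold higher. H2-DMb2 (1.42), H2-Oa (1.25) and H2-DMa (0.85) were higher by less, and H2-Ob (-0.43, adjusted p = 0.177) and Ciita (0.72, adjusted p = 0.558) did not pass. With cells above 5000 genes kept, Ciita was higher in ILCs (1.63, adjusted p = 0.0321).

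Class II genes and B cell genes stood at unequal shares of the naive B cell level. As a percent of the naive B cell level in the same library, H2-Aa reached 8.14%, H2-Ab1 11.2%, H2-Oa 17.4% and H2-DMb1 29.5% in ILCs (means of 4 libraries), while the B cell genes Cd79a, Ighd and Ighm reached 0.330%, 0.555% and 2.93%. Cd22 (0.365%), Bank1 (0.310%) and Fcrla (0.617%) were also low in ILCs, but Cd37, which other leukocytes are known to express too, was at 29.3% in ILCs and 28.5% in T cells, above 9 of the 10 class II genes in ILCs. Ciita (2.65%) and H2-Ob (2.11%) in ILCs were below Ighm. In T cells H2-Aa was at 1.87%, H2-Ab1 at 2.65% and H2-DMa at 9.86%, against 0.378% for Cd79a, 1.54% for Ighd and 18.8% for Ighm. Of ILCs 6.84% had a Cd79a UMI and 0.613% a Cd3e UMI, and of T cells 7.29% had a Cd79a UMI.

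**Figure D3:**
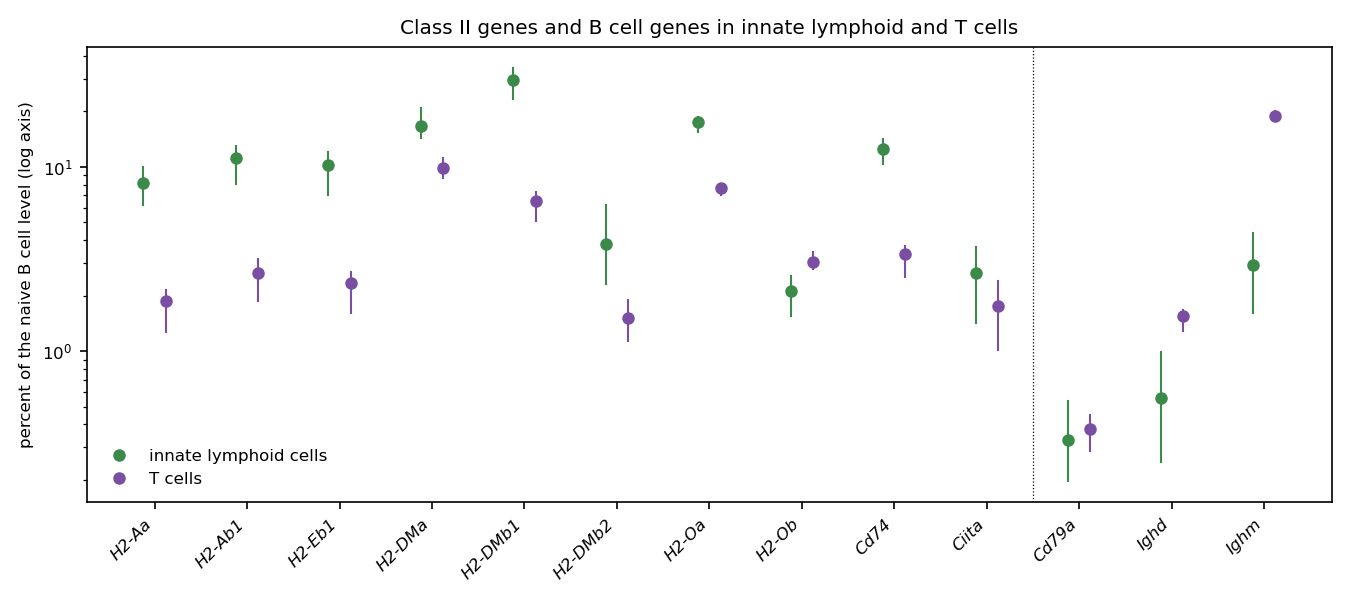
Level of the 10 class II genes and of 3 B cell genes (right of the dotted line) in ILCs (green) and T cells (purple), as a percent of the naive B cell level in the same library, on a log axis, with the mean of 4 libraries as a point and their range as a line. In ILCs 8 class II genes lie above the highest mean of the 3 plotted B cell genes, 2.93%, and H2-Ob and Ciita lie below it. Cd37, not plotted, was at 29.3%.

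By the pattern over the 7 class means (log2 CPM), the genes most like the mean of H2-Aa, H2-Ab1, H2-Eb1 and Cd74 among 11582 genes included Pira2 (Pearson r = 0.968), Tifa (0.967), BC028528 (0.966) and Rab39 (0.966). Within the set, H2-DMb1 (0.942), Ciita (0.938) and H2-DMa (0.926) followed that mean, and H2-DMb2 (0.575), H2-Ob (0.331) and H2-Oa (0.107) did so less. The genes most like Ciita were Hexdc (0.988), A930007I19Rik (0.977), Gm6377 (0.975), Slc15a4 (0.974) and Syk (0.971), and Cd74 was at 0.959. These are descriptions over 7 points that share libraries, and Ciita in macrophages averages over 2 unlike temperatures.

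Between the 30 °C and 4 °C groups, Ciita in macrophages changed more than any other of the 10 genes in the 6 classes tested. It rose from 36.2 and 41.9 CPM at 30 °C to 143 and 153 CPM at 4 °C, a 3.61-fold rise (log2 fold change 1.85 ± 0.16, edgeR adjusted p = 5.09e-06) with no overlap. For H2-DMb1, 389 and 354 CPM at 30 °C became 576 and 548 CPM at 4 °C (0.54 ± 0.11, adjusted p = 0.00591). H2-DMa rose from a range of 469 to 481 CPM up to 649 to 650 CPM (0.39 ± 0.11, adjusted p = 0.0290), but did not pass with DESeq2 (adjusted p = 0.0671) or without any 1 of the 4 libraries (adjusted p from 0.0521 to 0.0996). Thus 3 of the 9 genes tested rose, where 14.8% of genes passed, 7.41% higher and 7.42% lower. The peptide-binding chains and the invariant chain did not pass, at 0.02 ± 0.10 for H2-Aa, 0.08 ± 0.10 for H2-Ab1, -0.05 ± 0.10 for H2-Eb1 and -0.06 ± 0.11 for Cd74. H2-DMb2 (0.45 ± 0.47) and H2-Ob (0.34 ± 0.38) did not pass either, and H2-Oa had too few UMIs to be tested. With 1 library left out, H2-DMb2 ran from -0.31 to 1.24. In one edgeR fit over the 7 classes, H2-DMa did not pass (adjusted p = 0.0938). Ciita kept its direction and passed in all 15 alternatives run in macrophages (1.75 to 1.97, adjusted p at most 2.77e-05), library totals included.

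**Figure D4:**
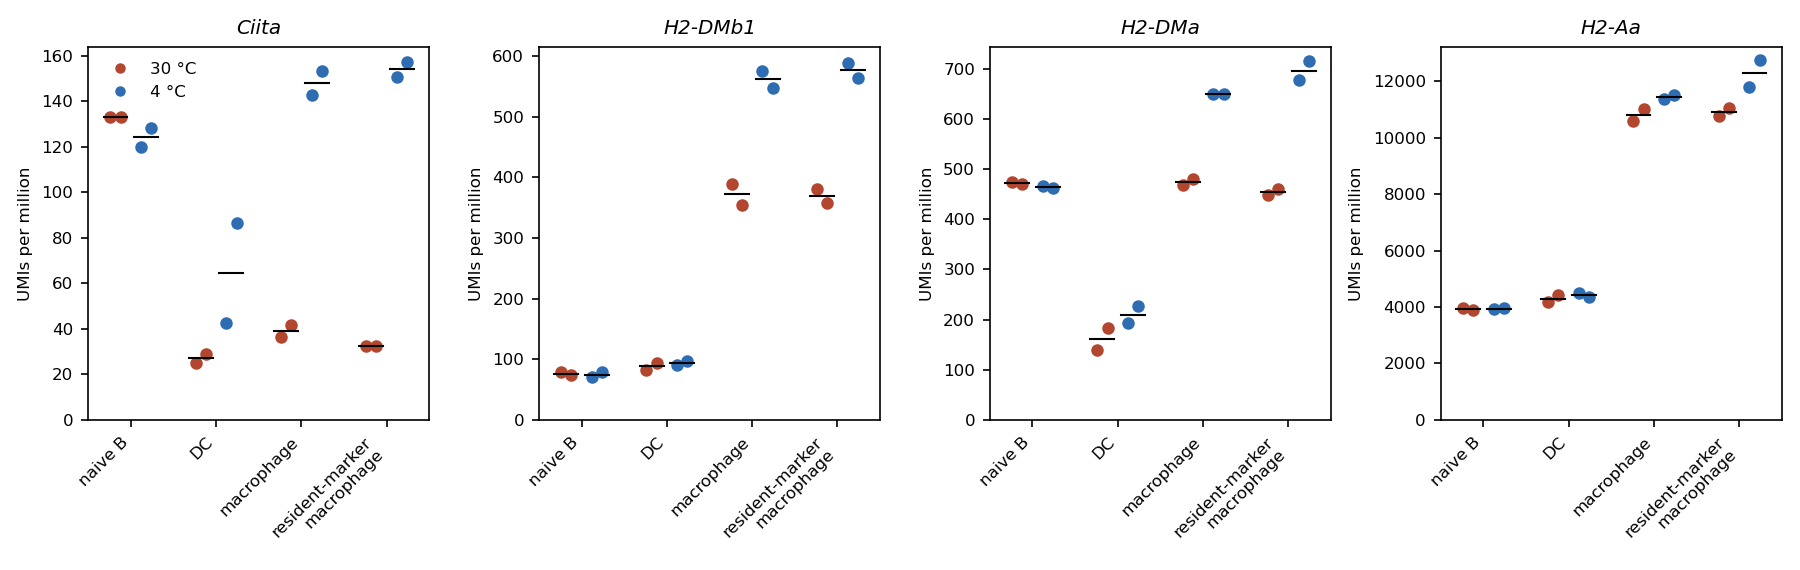
Level of Ciita, H2-DMb1, H2-DMa and H2-Aa (CPM, linear axes from 0) at 30 °C (red) and 4 °C (blue) in 4 cell classes, 1 point per library and a bar at the mean of 2 libraries. Ciita in macrophages is at 36.2 and 41.9 at 30 °C and at 143 and 153 at 4 °C, and in naive B cells at 133 and 133 and at 120 and 128.

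The share of macrophages with a Ciita UMI was higher in the cold libraries too. With all UMIs it was 21.6% and 21.2% at 30 °C and 53.1% and 51.1% at 4 °C, at median depths of 9420 and 9241 and of 8003 and 8744 UMIs. With each cell thinned to 3000 UMIs, which left out 12, 14, 42 and 17 cells, the share in the 30 °C libraries was 7.09% (95% interval 3.29 to 13) and 9.49% (95% interval 5.15 to 15.7). The cold libraries stood at 30.7% (95% interval 26.0 to 35.8) and 25.8% (95% interval 18.4 to 34.4). These intervals cover the counting of cells within 1 library and not the spread between pools, of which there were 2 per temperature. T cells, which give the background, were at 0.460 to 0.892% after thinning and at 1.01 to 2.08% with all UMIs, at median depths of 5991 to 6849 UMIs. Naive B cells were at 32.7% and 32.4% at 30 °C and at 29.2% and 31.8% at 4 °C after thinning.

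Macrophages that carried resident markers such as Lyve1, Folr2 and Timd4 numbered 752 of the 834. The share of those with few resident markers, but with markers from a list that included Itgax and Trem2, was 3.60%, 5.96%, 6.20% and 11.3%. Such a cell need not carry Itgax or Trem2 itself. In resident-marker macrophages Ciita rose from 32.4 and 32.5 to 151 and 157 CPM (2.19 ± 0.15, 4.56-fold, adjusted p = 1.04e-06), and H2-DMb1 (0.60 ± 0.10, adjusted p = 0.00150) and H2-DMa (0.56 ± 0.10, adjusted p = 0.00208) rose too, where 16.8% of genes passed, 8.60% higher and 8.19% lower. In this subset H2-DMa passed without each of the libraries. The 55 cells gated by the list with Itgax and Trem2, 5 to 25 per library, were too few to be tested, and in them Ciita was at 121 and 117 CPM at 30 °C and at 46.9 and 94.7 CPM at 4 °C, lower in both cold libraries.

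Transcripts of the B cell genes Ighm, Ighd and Bank1 were also higher in the cold macrophage libraries, and their source was not tested. Ighm was at 276 and 233 CPM at 30 °C and at 552 and 540 CPM at 4 °C, Ighd at 7.39 and 9.08 against 22.6 and 19.6 CPM, and Bank1 at 39.2 and 33.5 against 73.8 and 65.2 CPM. Cd79a (6.65, 11.9, 7.91 and 10.2 CPM), Cd22 (2.96, 4.19, 4.10 and 18.1 CPM), Fcrla (1.47 to 4.72 CPM) and Cd37 (86.5 to 103 CPM) overlapped between temperatures, and the 5 listed genes in no gate (Ighm, Cd22, Bank1, Fcrla and Cd37) summed to 409 and 368 against 733 and 716 CPM. If all Cd79a in macrophages came from naive B cells, their RNA would bring 0.367 to 0.683 CPM of Ciita, with Ighd as the guide 1.83 to 4.76 CPM and with Ighm 9.97 to 22.7 CPM, against 36.2 to 153 CPM measured. Cd79a is a gate gene, and leaving out cells in more than 1 gate lowers it. Bank1, which is in no gate and was not used as a guide, was at 14.5 to 21.5% of the naive B cell level in macrophages. Ighm was at 7.48 to 17.9% of that level and Cd79a at 0.278 to 0.512%. Whether B cell RNA contributed to Ciita in macrophages was not tested. H2-Ob, which naive B cell RNA would bring as well, was at 9.61, 7.68, 9.96 and 14.1 CPM in macrophages.

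Among the partner genes 5 of 19 rose and 1 fell in cold macrophages, where 14.8% of all genes passed, 7.41% higher and 7.42% lower. Irf1 (0.82, adjusted p = 0.00167) and Spi1 (0.53, adjusted p = 0.00807), which encode transcription factors known to act on Ciita promoters, rose, as did the costimulatory genes Cd40 (0.96) and Cd83 (0.59). March1 fell by 0.72 on the log2 scale (adjusted p = 0.00455). The counts were 5 and 1 in resident-marker macrophages and with library totals too.

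**Figure D5:**
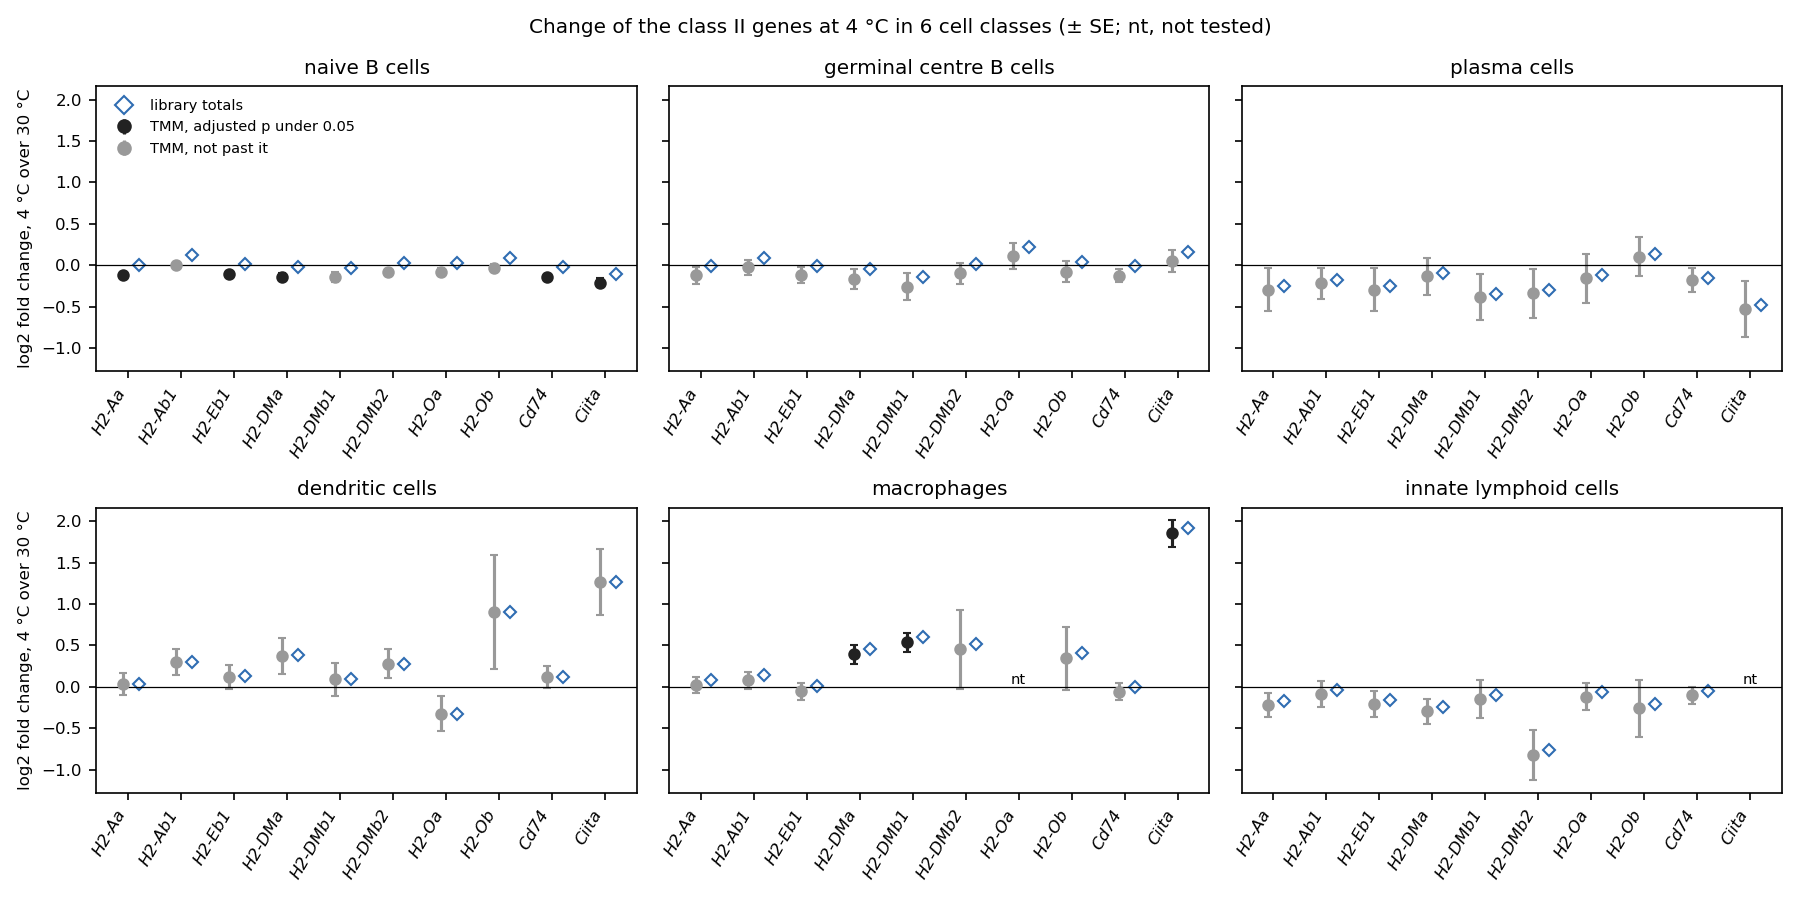
Log2 fold change of the 10 genes at 4 °C over 30 °C in 6 cell classes (circles, TMM, ± SE, black where the edgeR adjusted p is under 0.05; blue diamonds, the same fit with library totals as the scaling; nt, not tested). Ciita, H2-DMb1 and H2-DMa are black and above 0 in macrophages, and their diamonds, which do not mark calls, are above 0 too. The 5 black genes of naive B cells, from -0.10 to -0.21, move to between -0.10 and 0.01 with library totals.

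In DCs no gene passed between temperatures by edgeR, of the 10 or of all 7916 genes tested (0%, with 741 genes at an unadjusted p under 0.05 and 46 called by DESeq2, none of the 10 among them). Ciita was at 25.2, 29.0, 42.6 and 86.7 CPM, without overlap between temperatures, and its log2 fold change was 1.26 ± 0.40 (edgeR adjusted p = 0.428). In one fit over the 7 classes the adjusted p was 0.0278, without 30 °C replicate 2 it was 0.0374 and without 4 °C replicate 1 it was 0.0287. In DCs with Fscn1 alone, Ciita was at 19.7, 22.1, 41.3 and 73.6 CPM, with the cold libraries again above the warm ones. H2-Ab1 in DCs was at 1602, 1835, 1983 and 2267 CPM, also without overlap (0.30 ± 0.16, adjusted p = 0.633). Cd79a in DCs was at 10.5, 9.06, 3.22 and 11.3 CPM and Ighm at 160, 141, 90.9 and 117 CPM, so that neither was higher in both cold libraries.

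In naive B cells the result turned on the scaling. Under TMM, H2-Aa (-0.11), H2-Eb1 (-0.10), H2-DMa (-0.14), Cd74 (-0.14) and Ciita (-0.21 ± 0.055, adjusted p = 0.0113) were lower at 4 °C and 0 of the 10 were higher, whereas with library totals 0 were lower, H2-Ab1 was higher (0.12, adjusted p = 0.00978) and H2-Aa (0.00) and H2-Eb1 (0.01) changed sign. Of all genes 16.1% passed under TMM (7.75% higher and 8.31% lower), and library totals moved the median of all genes from -0.0047 to 0.11 and the share of called genes that were higher from 48.3% to 79.5%. The CPM of H2-Aa overlapped between temperatures, and Ciita was at 133 and 133 CPM at 30 °C and at 120 and 128 CPM at 4 °C. DESeq2 called 2 of the 10 genes, one fit over the 7 classes 0, and the fits without 30 °C replicate 1 or replicate 2 called 0 and 1. The partner genes moved more than the set itself, with 11 of 19 higher and 2 lower. Nfya (0.69), Rfxank (0.52), Nfyb (0.41) and Rfx5 (0.36), subunits of the factors that bind class II promoters, rose, as did Cd83 (0.49), and March1 fell by 0.70 on the log2 scale. With library totals 11 were higher and 1 lower.

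In GC B cells and plasma cells 0 of the 10 genes passed between temperatures, where 0.763% of genes (0.150% higher and 0.612% lower) and 0.230% (0.0484% higher and 0.181% lower) did, and 0 of the 10 had an unadjusted p under 0.05. DESeq2 called none of the 10 in either class. Log2 fold changes ran from -0.26 ± 0.16 (H2-DMb1) to 0.11 ± 0.16 (H2-Oa) in GC B cells and from -0.52 ± 0.34 (Ciita) to 0.10 ± 0.24 (H2-Ob) in plasma cells. With library totals the median of all genes in GC B cells was 0.11, 45.6% instead of 19.7% of called genes were higher, and again 0 of the 10 passed. In GC B cells the fits without a 30 °C library called 1 of the genes (without replicate 1) or 3 (without replicate 2).

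In ILCs 0 of the 9 genes tested passed, where 6.63% of genes did, 2.85% higher and 3.78% lower. H2-DMb2 was at 26.7 and 14.7 CPM at 30 °C and at 13.2 and 9.79 CPM at 4 °C (-0.82 ± 0.30, not past the threshold by edgeR). H2-Aa was at 396, 288, 355 and 244 CPM, with both temperatures overlapping. H2-Ab1 (-0.09) turned to 0.33 (adjusted p = 0.0185) when the upper limit on genes per cell was lifted. With library totals 55.2% instead of 43.0% of called genes were higher in the cold. Among the 14 partner genes tested 1 rose and 1 fell. The gene that fell was Ctsl, a lysosomal protease, by 1.64 on the log2 scale (adjusted p = 0.00246).

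The change with temperature was then compared between classes by the interaction term of the fit over the 7 classes. The Ciita change in macrophages exceeded that in naive B cells by 2.10 ± 0.24 on the log2 scale (adjusted p = 4.07e-06), and H2-DMb1 did so by 0.69 ± 0.16 (adjusted p = 0.00820), so that 2 of the 10 genes passed where 4.66% of genes did, 2.31% higher and 2.35% lower. H2-DMb1 did not pass without replicate 1 of 30 °C (adjusted p = 0.0659) or of 4 °C (adjusted p = 0.181). The Ciita change in DCs exceeded that in naive B cells by 1.53 ± 0.34 (adjusted p = 0.0336, where 0.740% of genes passed, 0.485% higher and 0.255% lower), but not with library totals (1.37, adjusted p = 0.0903), when cells with more than 5000 genes were kept (adjusted p = 0.123), or without replicate 1 or 2 of 30 °C or replicate 2 of 4 °C (adjusted p from 0.102 to 0.639). Between macrophages and DCs 0 of the 10 passed (1.70% of genes did, 0.684% higher and 1.02% lower), and the difference for Ciita was 0.57 ± 0.41 (edgeR adjusted p = 0.671). Between GC B cells and naive B cells 0 of the 10 passed (0.0478% of genes did, 0.0318% higher and 0.0159% lower). In both of these comparisons 0 of the 10 had an unadjusted p under 0.05, and DESeq2 called 0 of the 10. With library totals the share of called genes that were higher moved from 65.6% to 40.2% for DCs against naive B cells (median of all genes from 0.01 to -0.14), from 40.2% to 50% for macrophages against DCs (from 0.03 to 0.12) and from 66.7% of 6 genes to 80% of 5 for GC against naive B cells.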

How the data were processed

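Single ChAT-eGFP+ cells of 4 libraries were measured by 10x 3′ sequencing. The authors deposited filtered matrices of raw UMI counts per gene and cell, made with Cell Ranger on mm10, with STAR and Seurat 4.2.0 also named in the submitters' processing notes. These notes give Cell Ranger 3.1.0 and the matrix headers 3.0.0. From the deposited counts, cells with 200 to 5000 genes and at most 7.5% mitochondrial UMIs were kept, as in the study's methods.

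Classes were set by marker gates: naive B cells had 2 or more B lineage genes (such as Cd79a, Cd79b and Ms4a1) with Ighd and 1 further gene (such as Fcer2a, Fcmr and Ccr7), GC B cells 2 of a list with Rgs13, Mef2b, S1pr2 and Bcl6, plasma cells 3 of Jchain, Sdc1, Prdm1, Tnfrsf17, Derl3 and Irf4, and macrophages 3 of C1qa, C1qb, C1qc, Csf1r, Adgre1, Mrc1, Fcgr1 and Cd68. DCs had 2 of Flt3, Zbtb46, Xcr1, Clec9a, Cd209a, Fscn1, Ccl22 and Cacnb3 with fewer than 3 macrophage genes, and ILCs 2 of Il17rb, Il1rl1, Il13, Il5, Gata3 and Rora. Doublets were kept after the filters, and Scrublet (scanpy 1.11.5) was an alternative.

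Counts were summed per class and library and tested with edgeR 4.0.16 in R 4.3.3 (TMM, filterByExpr with a minimum count of 10, quasi-likelihood F-test, Benjamini-Hochberg threshold 0.05 over all genes). Temperatures were compared in 1 fit per class, classes and interactions in fits over 7 classes with library as a block. DESeq2 1.42.0 and 16 alternative settings in all were run. Tests were checked on simulated data with changes of 1 on the log2 scale. The tests recovered 41.2% of these in DCs, 63.3% in plasma cells, 72.2% in ILCs and 76.2% in GC B cells. In macrophages 80% were recovered and in naive B cells 95.4%. A count of 0 genes in a class thus does not show that no gene changed. The genes, gates and partner lists were chosen with earlier results of these data known. All 10 genes are named whatever they show, partner genes where they passed, and similar genes as the 5 with the highest correlation, except that a few genes of these lists and gates are not reported here. Ifi30 and H2-Ea-ps were not analysed here.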

Additional observations from a re-analysis of the deposited data

Results flagged for a closer look

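In 3 cases the change with temperature differed between cell classes by the interaction term of the edgeR fit. The Ciita change in macrophages exceeded that in naive B cells by 2.10 on the log2 scale (SE 0.24, adjusted p = 4.07e-06). The H2-DMb1 change in macrophages exceeded that in naive B cells by 0.69 (SE 0.16, adjusted p = 0.00820). That call was lost without replicate 1 of 30 °C (0.71) and without replicate 1 of 4 °C (0.56). The Ciita change in DCs exceeded that in naive B cells by 1.53 (SE 0.34, adjusted p = 0.0336), and this call was lost in 5 of the alternatives.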

How the results depend on the processing

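Of the class II genes past the threshold between temperatures, the number in naive B cells (5) was 2 with DESeq2, 0 in one fit over the 7 classes and 1 with library totals, and 0 to 6 with 1 library left out. In DCs (0) it was 1 in one fit, and 0 to 2 with 1 library left out. In ILCs (0) it was 1 with cells above 5000 genes kept and 1 with no filter on low counts, and 0 to 1 with 1 library left out. It was 0 to 3 in GC B cells (0) and 2 to 3 in macrophages (3) with 1 library left out. Between GC and naive B cells (8) it was 3 with library totals and 5 to 8 with 1 library left out. The interaction of DCs with naive B cells (1) was 0 with cells above 5000 genes kept and 0 with library totals, and 0 to 1 with 1 library left out, and that of macrophages with naive B cells (2) was 1 to 2. With library totals, H2-Aa (0.000863) and H2-Eb1 (0.011) in naive B cells changed sign, and with cells above 5000 genes kept H2-Ab1 in ILCs did (0.33). The cause was not tested. In single genes 54 calls were lost, 34 gained and 2214 were as before.

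A replicate block left the number of class II genes past the threshold at 5 in naive B cells, 3 in macrophages and 0 in GC B cells, plasma cells, DCs and ILCs. The replicate numbers were not shown to pair the samples, since deviations of same-numbered libraries correlated at -0.280 (DCs) to 0.097 (plasma cells). With the block, 127 instead of 71 genes were called in GC B cells and 47 instead of 19 in plasma cells. With the numbers crossed in DCs, a setting chosen after seeing the data, 119 genes and 0 class II genes were called.

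Calls over all genes moved by more than 1.5 times in these cases. DESeq2 called 787 instead of 1802 in naive B cells, 632 instead of 1307 in macrophages, 678 instead of 1454 in resident-marker macrophages, 183 instead of 593 in ILCs, 44 in GC B cells, 43 in plasma cells and 46 instead of 0 in DCs. One fit called 310 in naive B cells, 301 in ILCs, 109 in GC B cells, 123 in plasma cells and 277 in DCs. With no filter, 293, 297 and 138 genes were called in GC B cells, plasma cells and DCs, and with stricter gates 208, 65 and 22. Without immunoglobulin genes 33 were called in plasma cells, and with library totals 8757 instead of 4663 between plasma and naive B cells. For the interactions, DESeq2 and no filter called 15 and 53 instead of 6 (GC B cells, 3 with a mitochondrial limit of 15%), 195 and 281 instead of 93 (DCs) and 358 and 379 instead of 214 (macrophages against DCs). With 1 library left out the counts were 21 to 488 in GC B cells, 19 to 75 in plasma cells, 3 to 469 in DCs, 205 to 352 in ILCs without a cold library, and 209 to 364 instead of 585 for the interaction of macrophages with naive B cells, with lows of 2 (GC B cells), 11 (DCs) and 61 (macrophages against DCs) for the others.

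With 2 pools per temperature, an exact permutation test of 1 gene cannot go below p = 0.333, and all p-values rest on the spread shared between genes. DCs (45 to 95 cells per library) and Ciita in ILCs (3 to 11 UMIs) limit the depth. Library totals, the DC split by Fscn1 and the crossed block were chosen after seeing the data.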
